A study of Mus musculus with 12 samples.

Results

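The p53 gene group described here holds Trp53, which encodes p53, its regulators Mdm2 and Mdm4, and 7 genes known as p53 targets or named for p53, Sesn1, Gadd45a, Trp53i11, Plk2, Polk, Ccng1 and Bax. These 10 of the 39423 genes in the count table were picked by name, with results of the same libraries known, so their own values are given as a description, without p-values. The libraries came from 3T3-L1 cells, mouse preadipocytes in permanent culture, induced to become adipocytes with DMI (MDI in the labels), which combines insulin, dexamethasone and 3-isobutyl-1-methylxanthine. Cells transfected with control siRNA (siCtrl, labelled NC) or with siRNA against the arginine methyltransferase PRMT1 (siPRMT1) were sequenced after 24 h of DMI (day 1) and after 72 h (day 3), with 3 libraries in each of the 4 groups. All 4 groups were transfected and received DMI, so there was no library of untransfected or uninduced cells. The work rests on 1 cell line, and which of the PRMT1 siRNAs of the study was sequenced is not given in the sources used here. Nothing in the labels says that replicates were separate cultures, and the study's methods speak of independent experiments in general without naming these libraries, so SDs and p-values measure the spread between these libraries, which may be technical.

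p53 is a transcription factor that binds DNA as a tetramer and is held at a low level in unstressed cells, mostly by breakdown of the protein. Mdm2 is the E3 ubiquitin ligase that marks p53 for breakdown and is itself a p53 target, which closes a feedback loop, and Mdm4 (MdmX) is its partner that binds and blocks the p53 activation domain. When p53 is active, its targets slow the cell cycle (Gadd45a, Ccng1, Plk2), open mitochondria in apoptosis (Bax), help to copy past damaged DNA (Polk) or restrain growth signalling (Sesn1). In 3T3-L1 cells, DMI first makes the arrested preadipocytes divide again, a step known as mitotic clonal expansion, before they fill with lipid. The study asked whether PRMT1 loss acts on this step and examined p53 and its targets in that context, which is the question the comparisons below address for the mRNAs.

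The mRNA level of a p53 target can depend on a p53 consensus element near its start, so the promoter windows of the 10 genes were searched for one. The element consists of 2 half-sites of 10 bases with up to 13 bases between them, its consensus reads the same on both strands, and up to 1 mismatch in the 20 bases was allowed. The windows came from RefSeq on GRCm38.p6 and ran from 250 bases before to 50 bases after each annotated start. All 10 genes had a window, with 13 windows in all. Such an element was found for 3 of the 10 genes (30%), against 1.24% of 27025 genes with a window and 3 of 56 other genes of the p53 pathway lists described below. The 3 genes were Bax, Ccng1 and Polk. With up to 2 mismatches, Sesn1 and Gadd45a were added, which gives 5 of 10 genes against 11.5% of all genes. At that setting 8 of the 56 other pathway genes (14.3%) had an element, close to the share of all genes. With 0 mismatches allowed, 0 of the 10 genes and 1 of the 56, Cdkn1a, had an element, against 0.074% of all genes. The 5 matches are printed 5′ to 3′ on the strand of the gene, with the half-sites in capitals:
Bax (1 mismatch): tgacAAGCATATCCcAGGCAAGCTTtgaa
Ccng1 (1 mismatch): ggccAGACCTGCCCGGGCAAGCCTtggc
Polk (1 mismatch): gcttGAACTAGCCTcAAACTTATTCtata
Sesn1 (2 mismatches): tggGCGCTTGGCCttcAAGCTTGTTTttg
Gadd45a (2 mismatches): ctGGACCTGGTTggctgaGGGCTAGCCCca
The Bax sequence lies at chr7:45467086-45467114 on the minus strand, with the element at positions -212 to -192 counted from the RefSeq start of its window. In the count table Bax reaches further upstream, to base 45468205, so the sequence lies within the gene as counted. The Ccng1 sequence lies at chr11:40755458-40755485 on the minus strand, and its half-sites touch, with a spacer of 0 bases. The Polk sequence lies at chr13:96519394-96519422 on the minus strand, in the window of one of its 2 annotated starts. The Sesn1 sequence lies at chr10:41887250-41887278 on the plus strand, also in 1 of 2 windows. The Gadd45a sequence lies at chr6:67037436-67037465 on the minus strand, with a spacer of 6 bases. Trp53, Mdm2, Mdm4, Trp53i11 and Plk2 held none with up to 2 mismatches, which says only that these letters are not in these windows. A match is a description of the sequence, and binding of p53 was not measured here.

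The libraries held 15116462 to 42357137 counts on genes. Prmt1, the targeted gene, stood at 85.8 ± 4.71 FPKM (counts per length of the gene and per total of the library, mean ± SD, n = 3) in siCtrl and 41.3 ± 2.61 FPKM in siPRMT1 cells at day 1, and at 123.8 ± 15.1 and 67.4 ± 4.92 FPKM at day 3. It was lower in siPRMT1 at both days, with log2 fold changes of -1.11 (SE 0.0758, edgeR adjusted p = 0.000985) and -0.88 (SE 0.0883, edgeR adjusted p = 1.22e-05). Summed over 8 adipocyte markers, libraries reached 117.6 to 164.3 FPKM at day 1 and 2179 to 3016 FPKM at day 3, while the 6 macrophage markers summed to at most 3.02 FPKM and the 5 endothelial markers to at most 0.98 FPKM. The 5 muscle markers summed to at most 1.29 FPKM at day 1 and, at day 3, to 10.3 to 13.3 FPKM in siCtrl and 8.97 to 9.79 FPKM in siPRMT1. The 4 epithelial markers summed to at most 0.12 FPKM at day 1 and, at day 3, to 11 to 11.4 FPKM in siCtrl and 6.36 to 6.64 FPKM in siPRMT1. At day 3, 2 of the 5 muscle markers averaged at least 1 FPKM in siCtrl and in siPRMT1. Of the 4 epithelial markers, 2 did in siCtrl and 1 in siPRMT1. These day 3 sums thus rest on few genes of each list, and whether other cell types were present was not tested. siCtrl day 1 replicate 3 stood apart from its group, with a chi-square per gene of 50.6 against replicate 1 and 30.8 against replicate 2, where other pairs of replicates ranged from 4.14 to 15.8. In this library Mdm4 stood at 0.534 times the mean of the other two, Polk at 0.726, Mdm2 at 0.754 and Ccng1 at 0.761 times, and Trp53 at 1.22 times.

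Mdm2 was by far the most abundant mRNA of the group. Averaged over the 12 libraries it stood at 438.8 FPKM, rank 81 of 39423 genes, against 109.4 FPKM for Ccng1, 74.7 FPKM for Trp53 and 0.152 FPKM for Trp53i11. The order Mdm2, Ccng1, Trp53 headed the list in all 4 groups and Trp53i11 closed it, and in no group did the libraries of Mdm2, Ccng1 and Trp53 overlap with the gene next in the order. Below them the order depended on the group. In siCtrl at day 1 it was Plk2, Bax, Sesn1, Mdm4, Gadd45a and Polk, where only Mdm4 and Gadd45a overlapped. In siCtrl at day 3 it was Bax, Mdm4, Sesn1, Gadd45a, Plk2 and Polk, so that Plk2 had moved from first of these 6 to the fifth place, and Mdm4 overlapped with Sesn1 and Gadd45a with Plk2.

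**Figure D1:**
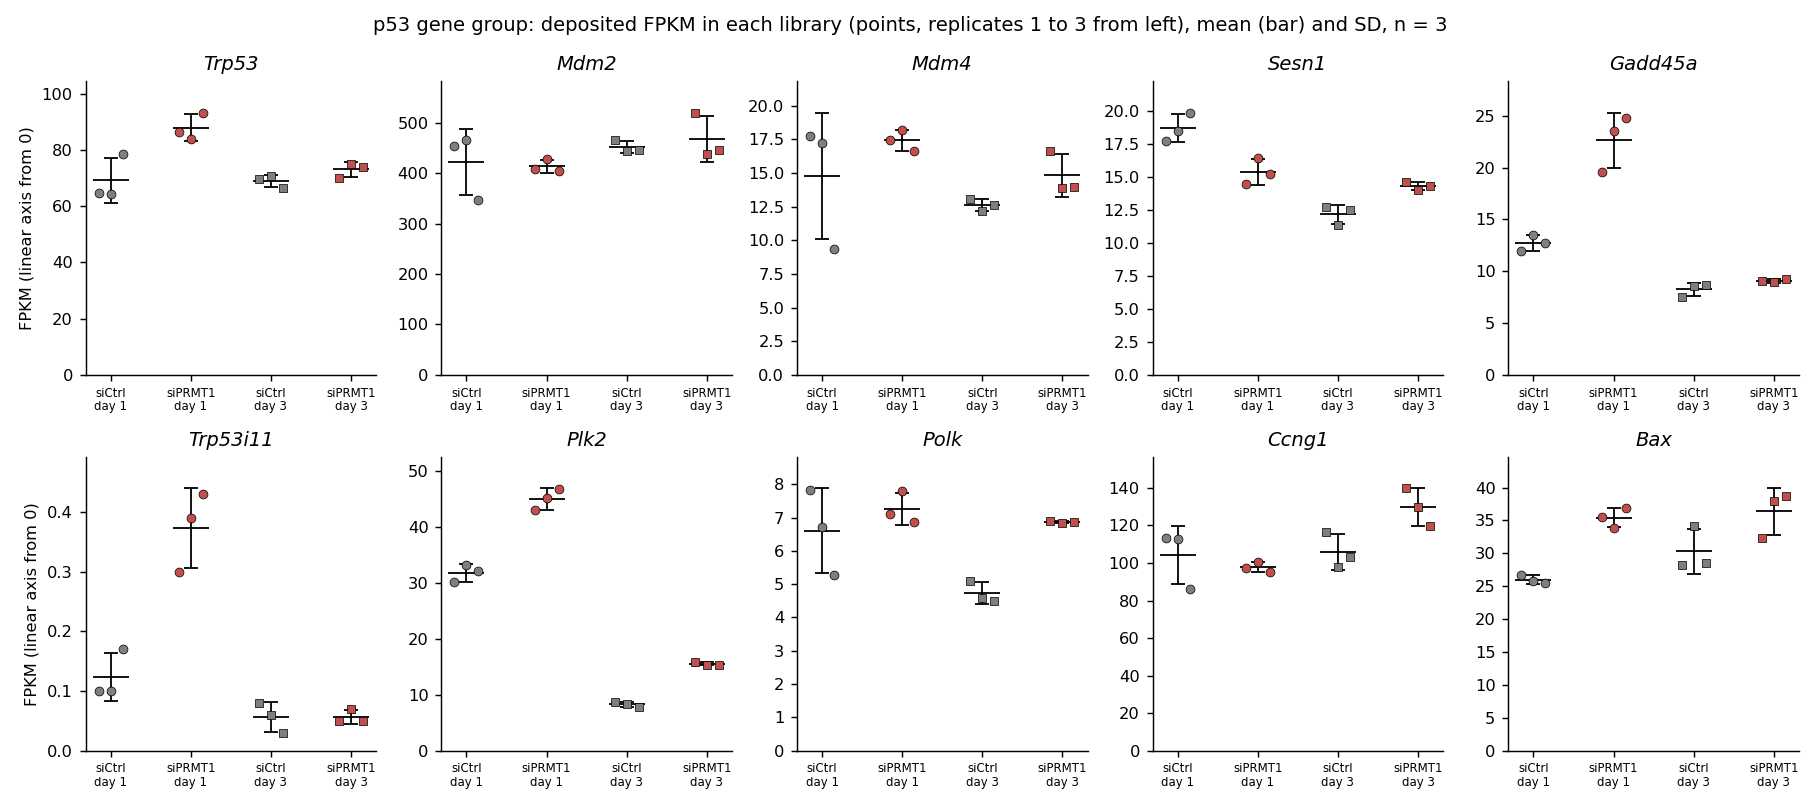
Deposited FPKM (y axis, linear from 0) of each of the 10 genes in siCtrl (grey) and siPRMT1 (red) cells at day 1 (circles) and day 3 (squares). Points are the 3 libraries of a group with replicates 1 to 3 from left, long bars are means and error bars are SD. Gadd45a and Trp53i11 are highest in siPRMT1 at day 1, Plk2 is higher in siPRMT1 at both days, and siCtrl day 1 replicate 3 is the lowest point of its group for Mdm2, Mdm4, Polk and Ccng1.

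To see which of these genes differed with PRMT1 knockdown, siPRMT1 was compared with siCtrl at each day. A gene was called when its edgeR adjusted p was under 0.05 and its log2 fold change exceeded 0.5 in either direction. At day 1, 2 of the 10 genes were called higher, Gadd45a and Trp53i11, and none lower, where 1.95% of 13689 genes tested were called higher and 1.61% lower. The siPRMT1 libraries all lay above the siCtrl libraries for 5 genes (Trp53, Gadd45a, Trp53i11, Plk2 and Bax) and all below for 1 (Sesn1), against 20.1% and 12% of all genes tested. Here and below, such overlaps of libraries were read from counts scaled to library total, without the TMM scaling of the edgeR fold changes. The part of scaling in them was not tested. At day 3, 2 of the 9 genes tested were called higher, Plk2 and Polk, and none lower, where 2.84% of 14039 genes were called higher and 3.8% lower. At that day siPRMT1 lay above siCtrl for 6 genes (Mdm4, Sesn1, Gadd45a, Plk2, Polk and Ccng1) and below for none of the 10, against 17% and 17.8% of all genes tested. The median log2 fold change of the group was 0.24 at day 1 and 0.23 at day 3, where the medians of all genes tested were 0.0096 and 0.0073. Because the genes were chosen with results known, these counts are a description of the 10 genes only.

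Trp53 (chr11:69580359-69591873, plus strand, mm10) stood at 64.5, 64.4 and 78.4 FPKM in siCtrl replicates 1 to 3 at day 1 and at 86.4, 83.8 and 93.3 FPKM in siPRMT1. The siPRMT1 libraries all lay above the siCtrl libraries, with a log2 fold change of 0.30 (SE 0.0875) that was under the threshold and not called. It was 0.39 without siCtrl day 1 replicate 3, the library with the highest siCtrl level, and again not called. At day 3 Trp53 stood at 69.7, 70.6 and 66.5 FPKM in siCtrl and 70.2, 74.9 and 74.0 FPKM in siPRMT1, so the groups overlapped (log2 fold change 0.08, SE 0.0661). Between the days its effect differed by -0.20 (SE 0.114), and by -0.33 without siCtrl day 1 replicate 3, neither called. Trp53 shares 6 of its 2280 exon bases with the antisense gene Wrap53, and the strand setting of the counting is not given in the sources used here.

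Mdm2 (chr10:117688875-117710758, minus strand), the ligase and feedback target, stood at 454, 466 and 347 FPKM in siCtrl and 409, 429 and 405 FPKM in siPRMT1 at day 1. At day 3 it stood at 465, 444 and 445 FPKM in siCtrl and 520, 437 and 446 FPKM in siPRMT1. The groups overlapped at both days, with log2 fold changes of -0.08 (SE 0.107) and 0.05 (SE 0.0767), and without siCtrl day 1 replicate 3 the day 1 value was -0.21, not called. Mdm2 took 0.254% to 0.381% of all counts of a library. At day 1 the siCtrl ratios of Mdm2 to Trp53 FPKM were 7.03, 7.23 and 4.42, and those of siPRMT1 were 4.73, 5.12 and 4.34. At that day the 3 siPRMT1 ratios lay below siCtrl replicates 1 and 2, while siCtrl replicate 3 stood among them. At day 3 the ratio ran from 6.29 to 6.69 in siCtrl and from 5.84 to 7.42 in siPRMT1.

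Mdm4 (chr1:132986105-133030587, minus strand), the partner that blocks p53 but has little ligase activity of its own, stood at 17.8, 17.2 and 9.34 FPKM in siCtrl and 17.4, 18.2 and 16.6 FPKM in siPRMT1 at day 1. The wide spread of siCtrl came from replicate 3, and the log2 fold change of 0.18 (SE 0.214) turned to -0.06 without it. At day 3 Mdm4 stood at 13.1, 12.2 and 12.7 FPKM in siCtrl and 16.7, 13.8 and 13.9 FPKM in siPRMT1. The siPRMT1 libraries all lay above, by a log2 fold change of 0.22 (SE 0.0821) that was not called. The differences between the days were 0.06 (SE 0.235) for Mdm4 and 0.14 (SE 0.129) for Mdm2, and 0.27 and 0.24 without siCtrl day 1 replicate 3, none called. Isoforms of Mdm4 cannot be separated in counts per gene.

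Gadd45a (chr6:67035096-67037407, minus strand), a stress-induced inhibitor of the cell cycle that also acts in DNA repair, rose at day 1. It stood at 11.9, 13.5 and 12.8 FPKM in siCtrl and 19.6, 23.5 and 24.8 FPKM in siPRMT1, a log2 fold change of 0.78 (SE 0.108) that was called. It was also called in all 9 alternatives and in 5 of the 6 fits that leave out 1 library, the exception being siPRMT1 day 1 replicate 3 (0.71, not called). At day 3 the levels were 7.52, 8.54 and 8.72 FPKM in siCtrl and 9.05, 8.92 and 9.24 FPKM in siPRMT1. The groups did not overlap at day 3 either, but the log2 fold change was 0.13 (SE 0.105) and not called. The difference between the days, -0.63 (SE 0.148), was called over all 12 libraries and in all 12 fits without 1 library. Gadd45a shares 238 of its 1224 exon bases, 19.4%, with the antisense gene E230016M11Rik, which averaged 0.302 FPKM, and with the strand setting unknown their reads cannot be told apart.

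Plk2 (chr13:110395044-110400844, plus strand), a polo-like kinase induced by p53 and by serum, was higher in siPRMT1 at both days. At day 1 it stood at 30.1, 33.2 and 32.1 FPKM in siCtrl and 43.0, 45.3 and 46.8 FPKM in siPRMT1, with a log2 fold change of 0.45 (SE 0.0694) that was under the threshold of 0.5 and so not called, although 1 of 9 alternatives, limma on log2(FPKM + 0.1), called it at 0.50. At day 3 the levels were 8.62, 8.36 and 7.78 FPKM in siCtrl and 15.8, 15.4 and 15.3 FPKM in siPRMT1. The libraries of the groups were well apart, and the log2 fold change of 0.91 (SE 0.0809) was called, also in all 9 alternatives and all 6 fits without 1 library. The difference between the days was 0.47 (SE 0.0985), not called, and it was called at 0.52 without siCtrl day 1 replicate 1 and at 0.50 without siCtrl day 3 replicate 1, and at 0.52 with no filter on low counts.

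Ccng1 (chr11:40748552-40755315, minus strand), cyclin G1, is a p53 target that feeds back on Mdm2. At day 1 it stood at 113.4, 112.9 and 86.1 FPKM in siCtrl and 97.5, 100.8 and 95.2 FPKM in siPRMT1, and the groups overlapped (log2 fold change -0.14, SE 0.109, and -0.27 without siCtrl replicate 3, neither called). At day 3 it stood at 116.7, 98.0 and 103.1 FPKM in siCtrl and 139.8, 129.6 and 119.9 FPKM in siPRMT1. All siPRMT1 libraries of day 3 lay above siCtrl, with a log2 fold change of 0.29 (SE 0.0793) that was not called. The difference between the days was 0.45 (SE 0.135), not called, and it was called at 0.54 without siCtrl day 1 replicate 3, at 0.52 without siCtrl day 3 replicate 1 and at 0.50 without siPRMT1 day 3 replicate 3.

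Bax (chr7:45461695-45468205, minus strand), which permeabilizes the outer mitochondrial membrane, stood at 26.8, 25.7 and 25.5 FPKM in siCtrl and 35.5, 33.9 and 36.8 FPKM in siPRMT1 at day 1. The groups were apart, with a log2 fold change of 0.39 (SE 0.0686) that was not called because it was under 0.5. At day 3 Bax stood at 28.2, 34.2 and 28.5 FPKM in siCtrl and 32.3, 38.0 and 38.8 FPKM in siPRMT1. Here siCtrl replicate 2 stood above siPRMT1 replicate 1, and the log2 fold change was 0.26 (SE 0.0926), not called. Between the days its effect differed by -0.11 (SE 0.126), not called.

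Trp53i11 (chr2:93187533-93201757, plus strand), named as a p53-inducible gene, was barely expressed. At day 1 it stood at 0.10, 0.10 and 0.17 FPKM in siCtrl, from 14 to 27 counts a library, and at 0.30, 0.39 and 0.43 FPKM in siPRMT1, from 44 to 66 counts. The groups did not overlap and the log2 fold change of 1.56 (SE 0.25) was called. The call was lost in 3 of 6 fits without 1 library, at 1.47 without siCtrl replicate 2, 1.49 without siPRMT1 replicate 2 and 1.44 without siPRMT1 replicate 3, and at 0.29 with limma on log2(FPKM + 1) without its filter. At day 3 no library held more than 11 counts, and the gene was not tested there. Its difference between the days was -1.54 (SE 0.50), not called. This difference was called at -1.81 without siCtrl day 1 replicate 3 and at -1.87 without siCtrl day 3 replicate 3. It was also called at -1.49 with no filter on low counts and at -1.52 with a replicate block.

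Polk (chr13:96480689-96542646, minus strand), a DNA polymerase that copies past damaged bases, stood at 7.82, 6.73 and 5.28 FPKM in siCtrl and 7.11, 7.80 and 6.87 FPKM in siPRMT1 at day 1. The groups overlapped, and the log2 fold change of 0.08 (SE 0.142) turned to -0.07 without siCtrl day 1 replicate 3. At day 3 it stood at 5.11, 4.58 and 4.51 FPKM in siCtrl and 6.91, 6.85 and 6.86 FPKM in siPRMT1. The log2 fold change of 0.53 (SE 0.0836) was just past the threshold and was called, with 0.50 and no call without siCtrl day 3 replicate 3. It was called in 7 of 9 alternatives, and not with limma on log2(FPKM + 1), with or without its filter (0.46). The difference between the days was 0.47 (SE 0.161), not called, and it was called at 0.58 without siCtrl day 1 replicate 3 and at 0.51 with no filter on low counts. Among the knockdown effects at a single day, Plk2 at day 1 (0.45) and Polk at day 3 (0.53) were the values just outside and just inside the threshold of 0.5.

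Sesn1 (chr10:41810574-41908436, plus strand), sestrin 1, a stress protein that restrains mTORC1, was the only gene of the group whose siPRMT1 libraries all lay below siCtrl at day 1. It stood at 17.8, 18.5 and 19.9 FPKM in siCtrl and 14.5, 16.4 and 15.2 FPKM in siPRMT1, a log2 fold change of -0.33 (SE 0.0794) that was not called. At day 3 it stood at 12.7, 11.3 and 12.5 FPKM in siCtrl and 14.6, 14.1 and 14.3 FPKM in siPRMT1. Here the siPRMT1 libraries all lay above, with a log2 fold change of 0.23 (SE 0.0763), not called. The difference between the days, 0.58 (SE 0.109), was called over all 12 libraries and in all 12 fits without 1 library. Sesn1 and Gadd45a were the 2 of 10 genes called for this difference, in opposite directions, where 4.77% of 14612 genes tested were called higher and 3.47% lower.

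**Figure D2:**
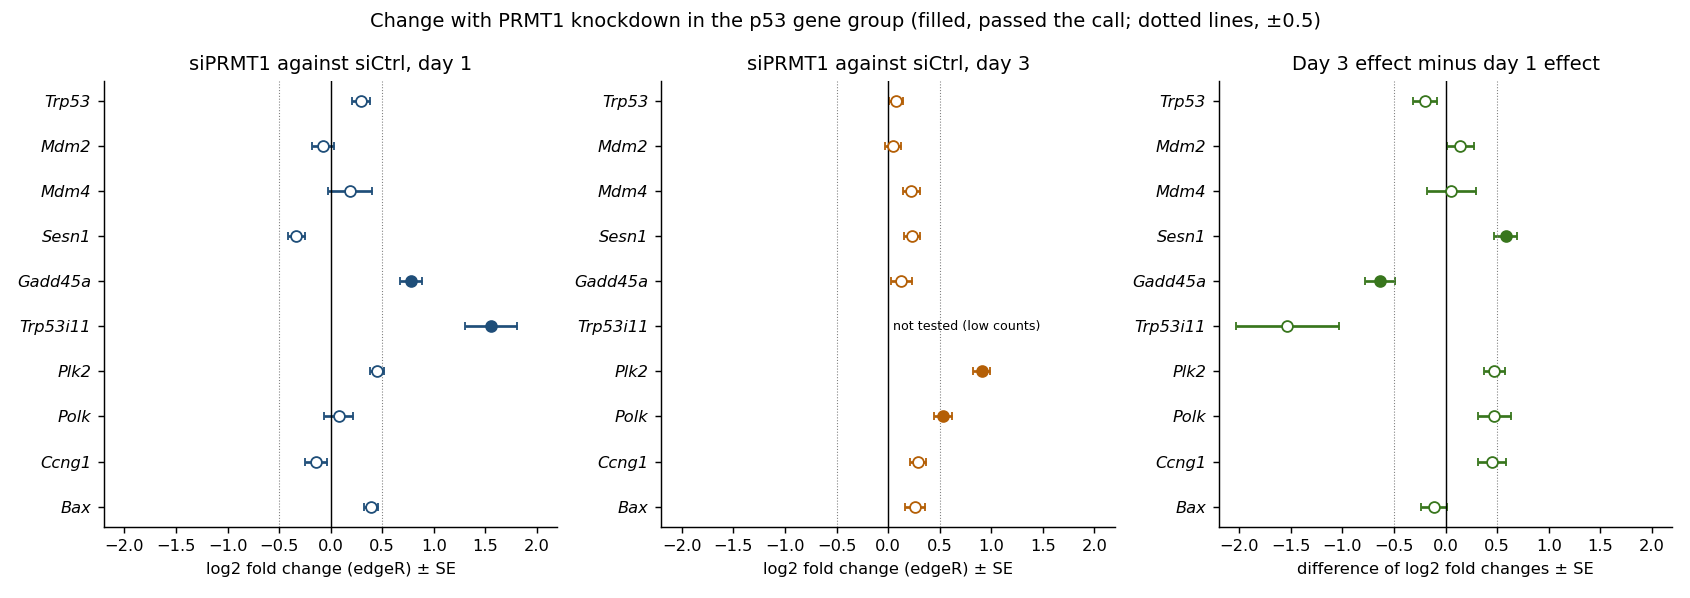
Log2 fold change of siPRMT1 against siCtrl at day 1 (left) and day 3 (middle), and the day 3 effect minus the day 1 effect (right), for the 10 genes. Points are edgeR estimates, bars are standard errors, filled points were called and dotted lines mark the threshold of 0.5 on either side. Gadd45a (0.78) and Trp53i11 (1.56) are filled at day 1, Plk2 (0.91) and Polk (0.53) at day 3, and Sesn1 (0.58) and Gadd45a (-0.63) for the difference.

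The other genes of the pathway were taken from 6 lists that together hold 77 genes, the 10 described above included. These lists were also set with earlier results of these data known. The adjusted p-values printed for their genes are therefore no test of lists set in advance. Of these, 72 passed the filter on low counts at day 1, with 5 called higher, 1 lower and a median log2 fold change of 0.06, and 70 passed at day 3, with 6 called higher, 4 lower and a median of 0.09. Without the 10 genes, 3 were called higher and 1 lower of 62 at day 1, and 4 higher and 4 lower of 61 at day 3. Over all genes tested, 1.95% were called higher and 1.61% lower at day 1, and 2.84% and 3.8% at day 3. The same shares apply beside the counts of each list below. The day 1 count of 6 changed with the libraries used. It was 10 without siCtrl replicate 3, 4 without siCtrl replicate 1 and 3 without siPRMT1 replicate 1. It was 2 without siCtrl replicate 2 or siPRMT1 replicate 2, and 1 without siPRMT1 replicate 3. Over all genes the day 1 count was 487, and it ranged from 123 to 873 in the same fits. In the p53 family, Trp63 was tested with log2 fold changes of -0.43 and -0.13, neither called, and Trp73 did not pass the filter.

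Among 19 regulators of p53, none was called at day 1 and 1 was called lower at day 3. This was Hipk2, a kinase that phosphorylates p53, at 59.6 ± 5.21 FPKM in siCtrl and 36.7 ± 2.95 FPKM in siPRMT1 (log2 fold change -0.70, SE 0.0833, edgeR adjusted p = 4.09e-05). Usp7, the deubiquitinase of p53 and Mdm2, had log2 fold changes of 0.16 and 0.20, with edgeR adjusted p = 0.211 and 0.0558. Cdkn2a, which encodes the Mdm2 inhibitor ARF, had 0.28 and -0.06 (edgeR adjusted p = 0.0904 and 0.727). The ARF transcript cannot be separated from others of Cdkn2a in counts per gene. Ppm1d, a phosphatase that dampens p53, had 0.15 and 0.01 (edgeR adjusted p = 0.26 and 0.962). The difference between days was called for Rchy1, a ubiquitin ligase of p53 (0.59, adjusted p = 0.0281), for Rpl5, a ribosomal protein that can bind Mdm2 (0.66, adjusted p = 0.00974), and for Hipk2 (-0.81, adjusted p = 0.00119). The Rchy1 call was kept in 4 of 12 fits without 1 library, and the others gave 0.48 to 0.60 with adjusted p = 0.0503 to 0.0735.

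Among 13 arrest and feedback targets, 2 were called higher and 1 lower of 12 tested at day 1, and 2 higher and 2 lower of 11 at day 3. Cdkn1a, which encodes the cell cycle inhibitor p21 and is the best known p53 target, stood at 49.9 ± 0.522 FPKM in siCtrl and 57.6 ± 4.44 FPKM in siPRMT1 at day 1 and at 97.7 ± 5.29 and 87.8 ± 1.34 FPKM at day 3. Its log2 fold changes were 0.16 (SE 0.0722, adjusted p = 0.228) and -0.16 (SE 0.0672, adjusted p = 0.121), neither called, with a difference between days of -0.29 (adjusted p = 0.0559). Ccng2, cyclin G2, was lower in siPRMT1 at both days, at -0.68 (adjusted p = 0.00302) and -0.57 (adjusted p = 0.000323), in all 6 fits without 1 library at each day. Plk3 was called in opposite directions, at 0.68 at day 1 (adjusted p = 0.034) and -0.54 at day 3 (adjusted p = 0.00233), with a difference of -1.21 (adjusted p = 0.00103). The day 1 call of Plk3 was kept only without siCtrl replicate 3, and without the other libraries it was 0.58 to 0.74 with adjusted p = 0.0883 to 0.149, and with limma on log2(FPKM + 1) without its filter 0.50 (adjusted p = 0.112). Its day 3 call was lost without siCtrl replicate 2 (-0.49) or siPRMT1 replicate 1 (-0.47), and with limma on log2(FPKM + 1), with or without its filter (-0.48). Ptprv was called at day 3 (0.54, adjusted p = 0.0348), although its groups overlapped and the call was lost without siCtrl replicate 1 (0.41), siCtrl replicate 3 (0.49), siPRMT1 replicate 2 (0.45) or siPRMT1 replicate 3 (0.52). It was also lost in the model of all 12 libraries (0.52, adjusted p = 0.102), with DESeq2 (0.53, adjusted p = 0.0542) and with limma on log2(FPKM + 1) without its filter (0.23, adjusted p = 0.243). Zmat3 had -0.26 (adjusted p = 0.0678) and 0.18 (adjusted p = 0.0819).

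Among 18 apoptosis targets, Trp53i11 was the 1 called at day 1 of 16 tested, and 2 of 15 were called at day 3, both higher. These 2 were Fas, a death receptor, and Eda2r. Fas stood at 5.91 ± 1.15 FPKM in siCtrl and 9.94 ± 1.26 FPKM in siPRMT1 (log2 fold change 0.73, SE 0.131, edgeR adjusted p = 0.00145). Eda2r stood at 3.03 ± 0.631 and 5.22 ± 0.735 FPKM (0.77, SE 0.13, edgeR adjusted p = 0.000875). With limma on log2(FPKM + 1) without its filter neither was called (0.67 and 0.63, adjusted p = 0.0702 and 0.0739). At day 1 Fas had -0.34 (adjusted p = 0.095) and Eda2r 0.27 (adjusted p = 0.457), the latter 0.07 without siCtrl replicate 3. Bbc3 (Puma), which frees Bax and Bak in the mitochondrial pathway, had 0.44 (adjusted p = 0.0962) and -0.11 (adjusted p = 0.52), and without siCtrl day 1 replicate 3 it was called at day 1 (0.53, adjusted p = 0.01). Pmaip1 (Noxa) had no count in any of the 12 libraries, and a count of 0 allows up to 3 counts in a library, 0.199 CPM (counts scaled to library total) in the shallowest. Phlda3 had 0.07 and 0.11 and Trp53inp1 -0.20 and 0.31 with adjusted p = 0.724, 0.401, 0.514 and 0.0496, none called, and without siCtrl day 1 replicate 3 the day 1 values were 0.19 and -0.40. Bid, a BH3 protein, was called for the difference between days (0.56, adjusted p = 0.0497). It kept this call in 2 of 12 fits without 1 library, and the others gave 0.40 to 0.61 with adjusted p = 0.0526 to 0.113. It lost it with RLE (adjusted p = 0.0529) and with at least 10 counts in every library (adjusted p = 0.0536).

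Among 9 DNA repair targets, 1 was called higher at each day, Gadd45a at day 1 and Polk at day 3, both described above. Of 16 metabolism and stress targets, 2 were called higher and none lower of 15 tested at day 1, and 1 higher and 1 lower at day 3. Sesn2, sestrin 2, stood at 22.1, 24.1 and 28.7 FPKM in siCtrl and 38.0, 37.4 and 38.8 FPKM in siPRMT1 at day 1 (log2 fold change 0.56, SE 0.0956, adjusted p = 0.0147). The groups were apart, but the call was kept only without siCtrl replicate 3, and the other 5 fits without 1 library gave 0.48 to 0.55 with adjusted p = 0.0356 to 0.0863. At day 3 Sesn2 had -0.13 (adjusted p = 0.251), a difference of -0.67 from day 1 (adjusted p = 0.0043). Gdf15, a stress cytokine, was called at day 1 (1.60, adjusted p = 0.0143) from 10 to 13 counts in siCtrl and 31 to 38 in siPRMT1, and lost the call without siCtrl replicate 2 (1.64), siPRMT1 replicate 1 (1.59), siPRMT1 replicate 2 (1.54) or siPRMT1 replicate 3 (1.59). Ddit4 (Redd1), an inhibitor of mTORC1, was called lower at day 3 (-0.66, adjusted p = 5.4e-05) and had 0.28 at day 1 (adjusted p = 0.0562). Ppargc1a, the coactivator PGC1α, stood at 0.41 ± 0.0656 FPKM in siCtrl and 0.603 ± 0.0289 FPKM in siPRMT1 at day 3 (0.55, SE 0.135, adjusted p = 0.0117), and lost the call without siCtrl replicate 3 (0.43, adjusted p = 0.0644), in the model of all 12 libraries (0.54, adjusted p = 0.0695) and with limma on log2(FPKM + 1) without its filter (0.19, adjusted p = 0.103). Rps27l, Tigar and Pank1 were called at neither day but for the difference between days, at 0.87, -0.54 and -0.57 with adjusted p = 0.00418, 0.0174 and 0.022. Rps27l was called lower at day 1 without siCtrl replicate 3 (-0.51) and higher at day 3 without siCtrl replicate 3 of that day (0.60). Tigar lost its call without siPRMT1 day 1 replicate 1 (-0.50) or siCtrl day 3 replicate 3 (-0.47). Pank1 lost its call in 4 of 12 fits without 1 library, which gave -0.50 to -0.54. With no filter on low counts neither was called for it, Tigar at -0.50 and Pank1 at -0.53 (adjusted p = 0.0644).

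Sesn2 and Ddit4 are also targets of ATF4, the transcription factor of the integrated stress response. A list of 14 genes, Atf4 itself and targets of it, was therefore counted beside the p53 lists. It too was set with results of these libraries known, so its counts are a description. At day 1, 6 of them were called higher and none lower, with a median log2 fold change of 0.44 and all 14 above 0. At day 3 none was called higher and 4 were called lower, with a median of -0.21 and 2 of 14 above 0. Here 2.84% of all genes tested were called higher and 3.8% lower, and 7195 of 14039 lay above 0. Without siPRMT1 day 1 replicate 1 or replicate 3, the day 1 count was 3. ATF4 is known to act on Gadd45a and Gdf15 too, and the part of this program in the values of these genes was not tested.

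**Figure D3:**
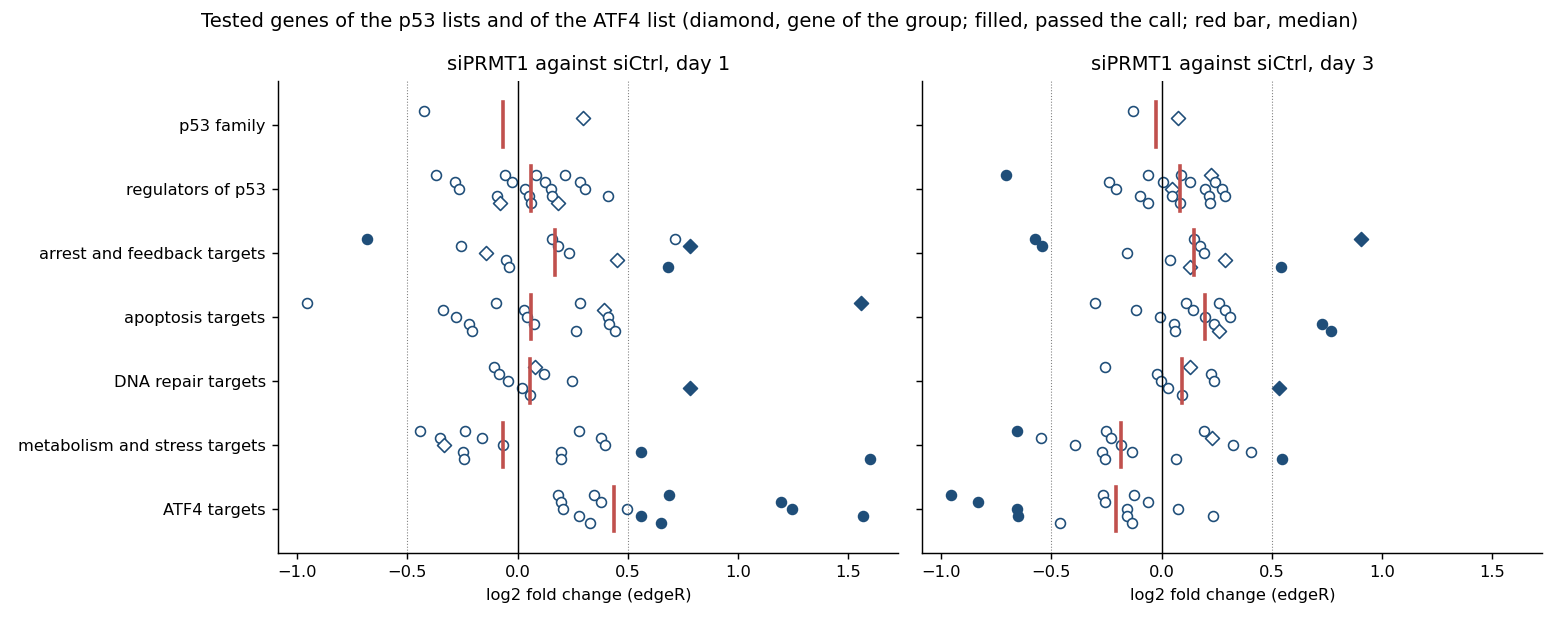
Log2 fold change (x axis, same scale in both panels) of siPRMT1 against siCtrl at day 1 (left) and day 3 (right) for every tested gene of the 6 p53 lists and of the ATF4 list. Diamonds are the 10 genes of the group, filled symbols were called, red bars are list medians and dotted lines mark 0.5 on either side. The 6 p53 lists spread around 0 with medians from -0.19 to 0.20, and the ATF4 list has its median at 0.44 at day 1 and at -0.21 at day 3. Genes in more than 1 list (Gadd45a, Sesn2, Ddit4) are drawn in each.

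To follow the group over differentiation, day 3 was compared with day 1 within each siRNA. These comparisons use the same libraries as the knockdown comparisons and are no independent evidence on them. In siCtrl, 5 of the 10 genes were called lower at day 3 and none higher, where 20.4% of 13829 genes tested were called lower and 22.7% higher. The day 3 libraries all lay below day 1 for these 5 genes and above for 1 (Bax), against 27.6% and 37% of all genes tested. In siPRMT1, 3 of 10 were called lower and none higher, where 17.4% of 14224 genes were called lower and 19% higher. Here the day 3 libraries lay below day 1 for 4 genes (Trp53, Gadd45a, Trp53i11 and Plk2) and above for 2 (Mdm2 and Ccng1), against 32.1% and 34.6% of all genes tested. Plk2 fell most in siCtrl, by 2.02 on the log2 scale (SE 0.0927), and fell by 1.55 in siPRMT1 (SE 0.0603). Gadd45a fell by 0.69 in siCtrl (SE 0.118) and by 1.33 in siPRMT1 (SE 0.0955). Trp53i11 fell by 1.16 in siCtrl (SE 0.393) and by 2.70 in siPRMT1 (SE 0.249), and the siCtrl call was lost without siCtrl day 1 replicate 3 (-0.92), siCtrl day 3 replicate 2 (-1.28) or siCtrl day 3 replicate 3 (-0.88), and with DESeq2 (-1.19). Sesn1 fell by 0.69 in siCtrl (SE 0.0926) and had -0.12 in siPRMT1 (SE 0.0685), not called. Polk fell by 0.56 in siCtrl (SE 0.141) and had -0.09 in siPRMT1 (SE 0.0743), not called, and its siCtrl call was lost without siCtrl day 1 replicate 1 (-0.43).

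Trp53 and Mdm2 were not called between the days. Trp53 had -0.07 in siCtrl (SE 0.0976), where the libraries overlapped, and -0.28 in siPRMT1 (SE 0.0572), where the day 3 libraries all lay below day 1. Mdm2 had 0.03 (SE 0.0984) and 0.16 (SE 0.068), and in siPRMT1 its day 3 libraries lay above day 1. Ccng1 had -0.05 (SE 0.111) and 0.40 (SE 0.0656), Bax 0.15 (SE 0.102) and 0.03 (SE 0.0707), none called. Without siCtrl day 1 replicate 3 the siCtrl values were 0.02 for Trp53, -0.10 for Mdm2 and -0.17 for Ccng1, again not called. Mdm4 had -0.30 in siCtrl (SE 0.197) and -0.25 in siPRMT1 (SE 0.0788), not called, and was called at -0.55 in siCtrl without siCtrl day 1 replicate 3. Cdkn1a rose in both, by 0.90 in siCtrl (adjusted p = 6.33e-06) and 0.60 in siPRMT1 (adjusted p = 1.51e-06). Over the same days the 7 preadipocyte markers went from 814.2 to 906 FPKM in sum at day 1 to 239.9 to 332.6 FPKM at day 3. At day 3 the summed adipocyte markers were 2803 to 3016 FPKM in siCtrl and 2179 to 2354 FPKM in siPRMT1. In bulk libraries, fewer cells with an mRNA and less of it per cell cannot be told apart, and the part of the cells' progress in these values was not tested.

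**Figure D4:**
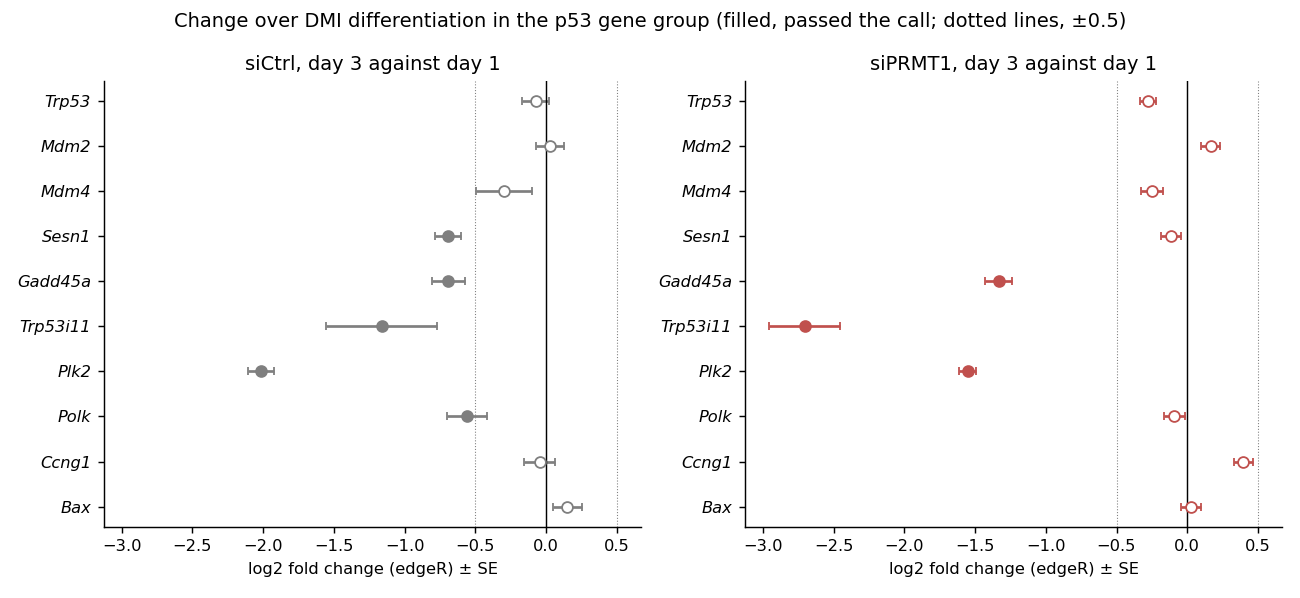
Log2 fold change of day 3 against day 1 in siCtrl (left, grey) and siPRMT1 (right, red) for the 10 genes. Points are edgeR estimates, bars are standard errors, filled points were called and dotted lines mark 0.5 on either side. Plk2 lies at -2.02 and -1.55, Gadd45a at -0.69 and -1.33, and Trp53 and Mdm2 lie near 0 in siCtrl.

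The high level of Mdm2, a gene named for the minute chromosomes of a mouse 3T3 derivative in which it was first found in extra copies, led to a look at its neighbours on chromosome 10, chosen after the values were seen. Within 500000 bases on either side the table lists 23 other genes, of which 7 averaged at least 1 FPKM. Of these 7, 4 (57.1%) averaged at least 50 FPKM, against 14.7% of 11239 such genes in the whole table, and their median was 55.7 FPKM against 12 FPKM. Slc35e3, a solute carrier 22.9 kb from Mdm2, averaged 428.3 FPKM, at rank 83, with Mdm2 at rank 81. Rap1b, a small GTPase, averaged 159.3 FPKM, Yeats4, a chromatin reader, 61 FPKM, and Nup107, a nuclear pore protein, 55.7 FPKM. Cpm, 1.52 kb from Mdm2 on the other side, averaged 2.47 FPKM, and Cpsf6 and Mdm1 averaged 14.1 and 9.71 FPKM. Slc35e3 stood at 398.3 ± 19.5 and 388.9 ± 6.29 FPKM in siCtrl and siPRMT1 at day 1 and at 461 ± 6.74 and 465.1 ± 28.9 FPKM at day 3. The number of copies of this region was not measured here.

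**Figure D5:**
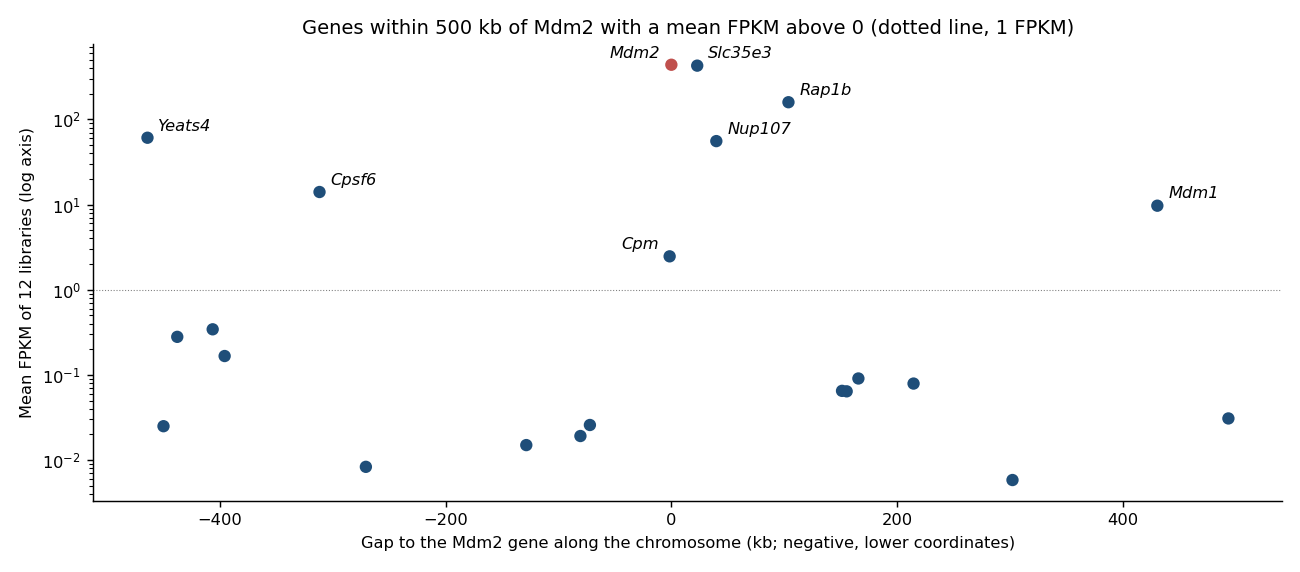
Mean FPKM of the 12 libraries (y axis, log scale) of genes within 500 kb of Mdm2 against their gap to Mdm2 in kb (x axis, negative towards lower coordinates). Mdm2 is red and the dotted line marks 1 FPKM. Genes at a mean of 0 cannot be drawn on the log axis. Mdm2 and Slc35e3 lie side by side at 438.8 and 428.3 FPKM, with Rap1b, Yeats4 and Nup107 between 55.7 and 159.3 FPKM.

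Within the group, the levels of some genes ran together over the 12 libraries, which share 4 groups and their shifts between days, so the correlations of log2(CPM + 1) are a description without p-values. Gadd45a ran with Trp53i11 (Pearson r = 0.956) and with Plk2 (r = 0.908), the genes that stood high at day 1 and higher still in siPRMT1. Mdm2 ran with Ccng1 (r = 0.80, and 0.756 without siCtrl day 1 replicate 3), and Mdm4 with Polk (r = 0.781, and 0.869 without that library). Trp53 ran with Trp53i11 (r = 0.886, and 0.896 without that library) and with Gadd45a (r = 0.794, and 0.811 without it). Trp53 and Mdm2 ran against each other (r = -0.783, and -0.793 without that library). Other pairs depended on that library. Mdm4 with Sesn1 had r = 0.21 with it and 0.886 without it, and Mdm4 with Plk2 0.543 and 0.902. Mdm2 with Mdm4 had 0.444 and 0.0947, and Mdm2 with Bax -0.207 and -0.607. Of 9324 genes that averaged 10 CPM or more, those most like Trp53 over the 12 libraries were Ccnd3 (Pearson r = 0.971, Spearman rho = 0.916), Asic1 (0.936 and 0.902) and Rcc2_1 (0.934 and 0.923). Those most like Mdm2 were 1700020I14Rik (0.967 and 0.895) and Trip12 (0.922 and 0.958).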

How the data were processed

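Total RNA of 12 3T3-L1 samples was sequenced as mRNA libraries. Per the labels, the submitters' processing notes name cutadapt 1.11, HISAT2 2.1.0, RSEM 1.2.6 and mm10. The notes give these tools no role, and which of them made the counts, the strand setting and the handling of multimapping reads are not given in the sources used here. The deposited counts are whole numbers per gene without normalization. The deposited FPKM was made by the authors from these counts, gene length and library total, and recomputed values differed by at most 0.005. A count of 0 allows up to 3 counts (0.0708 to 0.199 CPM).

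Counts were tested in R 4.3.3 with the quasi-likelihood test of edgeR 4.0.16 (TMM, filterByExpr), with Benjamini-Hochberg adjustment over all genes tested and calls at adjusted p under 0.05 and absolute log2 fold change over 0.5. Knockdown at each day and day 3 against day 1 in each siRNA used 3 against 3 libraries. The interaction of siRNA and day used all 12. Alternatives were DESeq2 1.42.0, RLE, no filter, at least 10 counts in every library, replicate blocks, 1 model for all libraries, no fold threshold, each library left out, and limma 3.58.1 on log2(FPKM + 1) or log2(FPKM + 0.1). Drawing used matplotlib in Python.

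The 10 genes and all lists were chosen with earlier results of these data known. Named beside them are Prmt1, the genes the study linked to p53 (Cdkn1a, Sesn2, Ppargc1a), pathway genes called for knockdown or interaction, 10 well known pathway genes (Bbc3, Pmaip1, Fas, Zmat3, Phlda3, Ppm1d, Trp53inp1, Eda2r, Usp7, Cdkn2a) and the 3 genes most correlated with Trp53 and with Mdm2, of which 1 is not reported here. Other genes were named, and the correlations without siCtrl day 1 replicate 3 were computed, after the values were seen.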

Additional observations from a re-analysis of the deposited data

Results flagged for a closer look

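In 14 of the 72 pathway genes tested, the difference of the knockdown effect between day 3 and day 1 was called by edgeR over all 12 libraries. The values are the log2 fold change at day 3 minus that at day 1. In the p53 gene group these were Sesn1 (0.58) and Gadd45a (-0.63). Among regulators they were Hipk2 (-0.81), Rpl5 (0.66) and Rchy1 (0.59). Among arrest and apoptosis targets they were Plk3 (-1.21), Fas (1.09) and Bid (0.56). Among metabolism and stress targets they were Sesn2 (-0.67), Ddit4 (-0.92), Gdf15 (-1.86), Rps27l (0.87), Tigar (-0.54) and Pank1 (-0.57). With 1 library left out, Bid kept the call in 2 of 12 fits, Rchy1 in 4, Pank1 in 8 and Tigar in 10. The others kept it in all 12. Over all genes tested, 4.77% were called higher and 3.47% lower for this difference.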

How the results depend on the processing

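Over all genes, 487 were called at day 1 and 933 at day 3. With limma on log2(FPKM + 1) the counts were 246 and 388, without its filter 153 and 342, and with log2(FPKM + 0.1) 569 at day 3. Without the threshold on the fold change they were 1040 and 2313, and 9014 for the days in siPRMT1. Of p53 pathway genes, 12 were then called at day 1 and 16 at day 3, and of ATF4 targets 10 and 8. With limma on log2(FPKM + 1), 6 pathway genes were called at day 3, and 4 without its filter. The other 78 counts under these alternatives stayed within 1.5 times. With 1 library left out, calls ranged from 123 to 873 at day 1, 781 to 964 at day 3, 813 to 1907 for the interaction, 5675 to 6638 for the days in siCtrl and 5167 to 5275 in siPRMT1. For the p53 pathway the ranges were 1 to 10, 8 to 10 and 11 to 21 (day 1, day 3, interaction), and for ATF4 targets 3 to 7, 4 to 5 and 7 to 11. The causes were not tested.

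No called value of the 10 genes turned its sign. Some of their uncalled values did with 1 library left out. At day 1 these were Mdm2 (-0.2078 to 0.0004), Mdm4 (-0.0625 to 0.3423) and Polk (-0.068 to 0.2257). At day 3 it was Mdm2 (-0.0446 to 0.1001), and for the interaction Mdm4 (-0.0978 to 0.2681). Between the days they were Trp53, Mdm2, Ccng1 and Bax in siCtrl and Bax in siPRMT1. Of the uncalled values of other named genes, Ppm1d at day 3 was -0.0028 with all libraries in 1 model. With 1 library left out, it ranged from -0.0771 to 0.0927, Ppargc1a at day 1 from -0.0095 to 0.4498, Ptprv at day 1 from -0.2197 to 0.1206, Cdkn2a at day 3 from -0.1391 to 0.0624 and the Phlda3 interaction from -0.0999 to 0.1459.

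Whether replicate numbers pair the libraries could not be settled from 3 libraries a group. The deviations of same-numbered libraries correlated from -0.053 to 0.31 at day 1 and from -0.0866 to 0.304 at day 3. Not every library was most like its own number. With a replicate block, 536 genes were called at day 1, 974 at day 3, 1340 for the interaction, 5929 for the days in siCtrl and 5193 in siPRMT1. The interaction was then also called for Trp53i11 (-1.52), Bbc3 (-0.54) and Trp53inp1 (0.52).

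Depth limits Trp53i11, with 5 to 66 counts a library, and Gdf15. Among fits without 1 library, the highest count of day 1 calls over all genes came without siCtrl day 1 replicate 3 (873), as did that of the interaction (1907), and the day 1 count was 185 without siCtrl replicate 2 and 179, 177 and 123 without siPRMT1 replicates 1, 2 and 3.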
